A study of Saccharomyces cerevisiae with 8 samples.

Results

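The wild-type response of budding yeast to 4 h of tunicamycin was followed in 4 of the 8 RNA-seq libraries of the series, namely all those labelled wild type. The cells were W303 with no labelled mutation. The medium was synthetic complete (SC) with 2% glucose, the temperature 30 °C, and the drug, 1 µg/ml tunicamycin, went in once the culture had reached OD600 = 0.2. The 4 h group holds 2 replicate libraries of total RNA taken after 4 h, and the 0 h group holds 2 libraries labelled as taken at 0 h. The submitters call the replicates biological; whether they came from separate starter cultures is not stated, so p-values measure the spread between these libraries. Both groups were lysed in the ribosome profiling buffer, and RNA was taken from the cleared lysate. Untreated cultures grown on for 4 h were not analysed here, so tunicamycin and time in culture cannot be told apart in any comparison below. The other 4 libraries, of grr1-deficient cells, entered no main result.

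Tunicamycin blocks the transfer of the first sugar to dolichol, and so stops N-linked glycosylation of proteins in the endoplasmic reticulum (ER). Unfolded protein in the ER lumen activates Ire1, which cuts HAC1 mRNA, and the spliced message encodes a transcription factor that induces ER chaperones, oxidoreductases, ER-associated degradation (ERAD) and lipid synthesis. This is the unfolded protein response (UPR). Yeast under many stresses also lowers the mRNAs for building ribosomes and raises those of a general stress programme driven by the transcription factors Msn2 and Msn4.

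Reads counted in genes numbered 8360928 and 8871653 in the 4 h libraries and 12119744 and 12083581 in the 0 h libraries, and 6273, 6255, 6198 and 6197 genes had at least 1 read in the same order. A count of 0 allows up to 3 reads, or between 0.263 and 0.324 CPM (a read count scaled to the size of its library), and this limit covers counting error only. Replicates were further apart than sampling noise alone gives, with a chi-square per degree of freedom of 6.04 at 4 h and 19.2 at 0 h. GRR1 (YJR090C, chromosome X, 590872 to 594327), the ubiquitin ligase subunit gene that the other strain lacks by its label, had 164 and 160.1 CPM at 4 h, against 127 and 147 CPM at 0 h. The mating receptor gene of MATa cells, STE2, was read in all 4 libraries. Of genes of the opposite mating type, the pheromone gene MF(ALPHA)1 had 6 reads or fewer in each library. MF(ALPHA)2 and HMLALPHA1 had 10 reads or fewer in each. STE3, SAG1 and HMLALPHA2 of that type were, however, read in all 4 libraries. STE3, the alpha-cell receptor gene, had 251 and 257 reads at 4 h, against 29 and 33 at 0 h.

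Genes were tested with edgeR on read counts, 4 h over 0 h, with the trimmed-mean (TMM) scaling that sets the bulk of genes to no change. A gene "rose" or "fell" below where its Benjamini-Hochberg adjusted p from edgeR was under 0.05. Values per library are TMM-scaled CPM, replicate 1 before replicate 2, and log2 changes carry a standard error (SE). Scaling by total counts instead moved the median log2 change of all 5795 genes tested to 0.78, against 0.03 under TMM, and shifted each gene upward by 0.75 at the median. Neither scaling measures RNA per cell, and in bulk RNA a smaller number of expressing cells and less RNA per cell cannot be told apart. In every gene whose CPM are given below by library, the 4 h and 0 h libraries did not overlap. Since the scaling decides the direction of small falls, gene lists are given with their total-count counts or median as well.

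Most of the transcriptome moved. Under TMM 2374 genes rose (41.0% of those tested) and 2285 fell (39.4%), while 1136 did not pass. Under total counts 3880 were higher (67.0%) and 1166 lower (20.1%), so the higher share of calls was 51.0% under TMM and 76.9% under total counts. All 2374 genes that rose under TMM were also higher under total counts. Of the 2285 that fell, 1166 stayed lower under total counts, 653 did not pass and 466 were called higher. Changes past 2-fold, tested with edgeR's glmTreat against a log2 change of 1, gave 899 higher genes (15.5%) and 989 lower genes (17.1%). Under total counts those numbers were 2051 and 553. The counts of list members below are to be read against the 41.0% higher and 39.4% lower of all genes. The libraries of the 2 times did not overlap for 5208 genes (89.9%), and 2 against 2 libraries allow no exact permutation p below 0.333.

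The make-up of the mRNA pool shifted away from the translation machinery. Genes for cytosolic ribosomal proteins took 1.83% and 1.81% of gene reads at 4 h, against 25.2% and 23.6% at 0 h. Translation factors and cytosolic tRNA synthetases took 3.80% and 3.61% of gene reads at 4 h, against 10.6% and 10.2% at 0 h. In the other direction, 118 genes for ER folding, degradation and traffic took 4.37% and 4.06% of gene reads at 4 h, against 1.69% and 1.74% at 0 h. Heat shock, storage sugar, antioxidant and Msn2 and Msn4 target genes took 5.27% and 5.51% of gene reads at 4 h, against 2.90% and 2.82% at 0 h. Nuclear genes for respiration took 1.94% and 2.00% of gene reads at 4 h, against 0.819% and 0.803% at 0 h. All 28 regions of the mitochondrial genome took 4.63% and 5.03% of gene reads at 4 h, against 1.85% and 1.72% at 0 h. The 8 listed protein genes among them took 1.40% and 1.45% at 4 h, against 0.545% and 0.501% at 0 h. Most of that share thus lay in its other regions. These shares divide up the gene reads of each library, as total-count scaling does. A fall in some classes thus raises the shares of others. The times did not overlap for any of these classes. Glycolysis and fermentation genes took 7.31% and 7.14% at 4 h, against 8.66% and 8.29% at 0 h. Genes for amino acid synthesis and permeases took 2.22% and 2.24% at 4 h, against 3.34% and 3.36% at 0 h. Those for ribosome biogenesis and RNA polymerases I and III took 0.577% and 0.578% at 4 h, against 1.80% and 1.81% at 0 h. Genes outside all of the classes above held 68.1% and 68.0% of reads at 4 h, against 43.2% and 45.7% at 0 h.

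**Figure D1:**
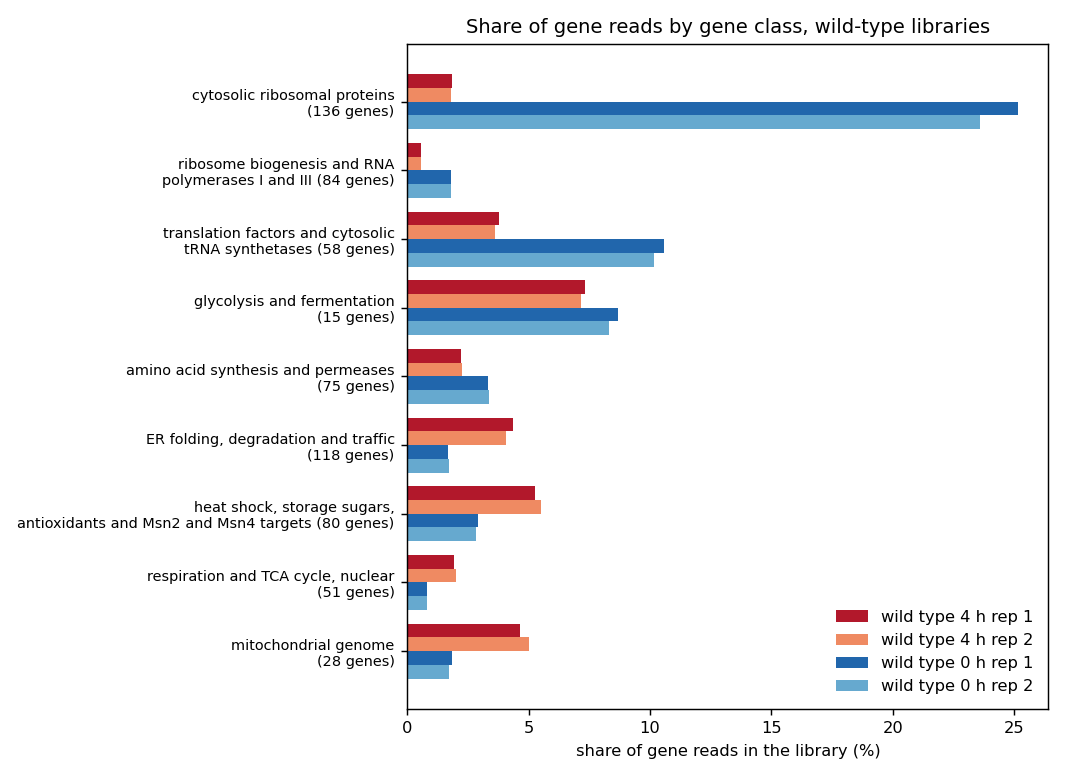
Share of all gene reads (%, horizontal axis) taken by each gene class in each of the 4 wild-type libraries, 1 bar per library, 4 h in red and orange above 0 h in the 2 blues. Cytosolic ribosomal protein genes held 1.83% and 1.81% of reads at 4 h, against 25.2% and 23.6% at 0 h, and the ER class held 4.37% and 4.06% at 4 h, against 1.69% and 1.74% at 0 h.

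The most abundant messages were partly the same at both times. By the RPKM values the authors deposited, which allow comparison between genes of different length, TDH3 (a glyceraldehyde-3-phosphate dehydrogenase) ranked 1 at both 4 h and 0 h. PGK1 ranked 2 at 4 h and 10 at 0 h. ENO2 ranked 3 and 7, and FBA1 ranked 4 at both times, all glycolytic genes. The elongation factor genes TEF2 and TEF1 ranked 5 and 14 at 4 h, and 2 and 5 at 0 h, and GPM1 ranked 6 at both. How reads that map to several places were treated is not stated, so the separate ranks of TEF2 and TEF1 are uncertain. RPS31, for a ubiquitin-ribosomal protein fusion, ranked 207 at 4 h and 3 at 0 h, with 452 and 464 RPKM at 4 h, against 10927 and 9322 RPKM at 0 h. The 10 genes with most reads held 8.92% and 8.85% of reads at 4 h, against 12.8% and 12.0% at 0 h.

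**Figure D2:**
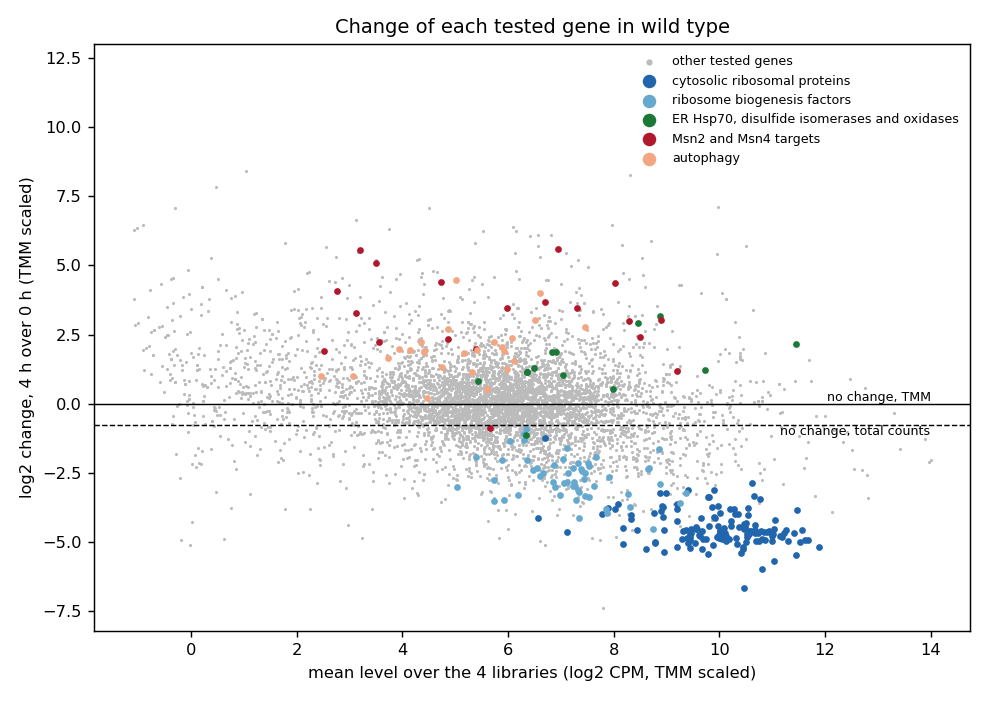
Each point is 1 of the 5795 genes tested, with its mean level over the 4 libraries (log2 CPM, horizontal axis) and its log2 change, 4 h over 0 h (vertical axis, TMM scaled); the solid line marks no change under TMM and the dashed line no change under total counts, 0.75 lower. Ribosomal protein genes (dark blue) form a group at high level with medians of -4.59 and -4.62, below both lines, while Msn2 and Msn4 targets (red) and autophagy genes (orange) lie above the TMM line except for 1 gene.

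None of the UPR signalling genes rose under TMM, while most of the folding genes downstream did. In the signalling list 0 of 4 tested genes rose, 3 fell and 1 did not pass, with a median log2 change of -0.83 (total counts: 2 higher, 2 lower, median -0.08). HAC1 (YFL031W, chromosome VI, 75179 to 76147), the UPR transcription factor gene, had 1335 and 1192 CPM at 4 h, against 1164 and 1116 CPM at 0 h, a log2 change of 0.15 ± 0.10 with an edgeR adjusted p of 0.177; it did not pass under TMM and was higher under total counts, at 0.90. The counts do not separate spliced from unspliced HAC1. IRE1, the ER stress sensor kinase and nuclease, had 64.2 and 62.0 CPM at 4 h, against 75.1 and 97.5 CPM at 0 h and fell by 0.45 ± 0.12 under TMM (edgeR adjusted p = 0.00355), but under total counts it was called higher, at 0.30. TRL1, the tRNA ligase that joins the cut HAC1 exons, fell to 43.5 and 46.5 CPM at 4 h, against 105 and 104 CPM at 0 h (-1.21 ± 0.09). PTC2, a phosphatase that acts on Ire1, had 34.5 and 25.3 CPM at 4 h, against 104 and 109 CPM at 0 h and fell by 1.83 ± 0.13. Both TRL1 and PTC2 were lower under total counts as well. UBP3, the deubiquitinase gene named in the study's title, had 57.7 and 61.0 CPM at 4 h, against 61.9 and 73.0 CPM at 0 h and a log2 change of -0.19 ± 0.10 that did not pass (edgeR adjusted p = 0.101), but passed without replicate 1 at 0 h (-0.30); under total counts it was higher, at 0.56. GRR1 had a log2 change of 0.24 ± 0.09 and passed (edgeR adjusted p = 0.0242), a call lost without replicate 1 at 4 h (0.22) or at 0 h (0.14), with DESeq2 and in a fit of all 8 libraries.

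ER folding genes rose together. All 6 genes of the Hsp70 list rose (total counts: 6 higher), with a median of 1.57 (total counts 2.32). The ER Hsp70 gene KAR2 (YJL034W, chromosome X, 381327 to 383375) had 4897 and 4209.8 CPM at 4 h, against 1047 and 972 CPM at 0 h, a log2 change of 2.17 ± 0.10 (edgeR adjusted p = 4.25e-10). SIL1, its nucleotide exchange factor, had the largest change of the list, with 629 and 621 CPM at 4 h, against 80.9 and 82.4 CPM at 0 h (2.94 ± 0.08). LHS1, the other exchange factor for Kar2, rose least, with 293 and 308 CPM at 4 h, against 208 and 209 CPM at 0 h (0.53 ± 0.08). The J-domain partners JEM1, SCJ1 and ERJ5 rose by 1.86, 1.29 and 1.17 on the log2 scale.

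Of 7 disulfide isomerases and ER oxidases, 6 rose and 1 fell under both scalings, with a median of 1.15 (total counts 1.90). ERO1, the thiol oxidase that drives disulfide formation, had 912 and 776 CPM at 4 h, against 94.8 and 91.5 CPM at 0 h (3.18 ± 0.10, edgeR adjusted p = 9.87e-12). PDI1, the essential isomerase, had 1314 and 1063 CPM at 4 h, against 463 and 546 CPM at 0 h (1.24 ± 0.12). The related isomerase genes MPD1, MPD2 and EUG1 rose by 1.86, 1.15 and 1.04, and the oxidase ERV2 by 0.81. EPS1, a membrane-bound family member linked to quality control, went the other way, with 52.8 and 49.5 CPM at 4 h, against 112 and 109 CPM at 0 h (-1.11 ± 0.09). The genes that trim and read N-glycans did not share in the rise: of 5 glycan-processing genes 0 rose, 4 fell and 1 did not pass (total counts: 1 higher, 3 lower), with a median of -1.04 (total counts -0.29). The glucosidase I gene CWH41 fell by 1.28 ± 0.09, the glucosidase II gene ROT2 by 1.09 ± 0.09 and CNE1, yeast calnexin, by 1.04 ± 0.11, all also lower under total counts. MNS1, ER mannosidase I, had a log2 change of -0.45 under TMM that turned to 0.30 under total counts, where it did not pass, and the TMM call was lost without replicate 2 at 4 h (-0.32).

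The UPR element (UPRE), the sequence read by Hac1, was searched as CAGCGTG on both strands in the 250 bases before the annotated start of each gene. It was found in 1.03% of 5611 promoters read (RefSeq, build R64), and in 2 of 13 promoters of the ER folding lists, those of KAR2 and LHS1. They are shown because they carry the element whose targets are described above, with the element in capitals, read toward the gene; in LHS1 it lies on the other strand, as its reverse complement.
KAR2, chrX:381135-381204, plus strand: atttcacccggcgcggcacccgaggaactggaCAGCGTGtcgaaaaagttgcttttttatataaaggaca
LHS1, chrXI:296299-296368, plus strand: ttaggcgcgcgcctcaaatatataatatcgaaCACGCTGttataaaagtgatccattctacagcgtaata
These 2 genes stood at 2.17 and 0.53 log2, while SIL1 and ERO1, which rose more, had no such 7 letters in the window. Among all 58 genes with the element, 41.4% rose and 41.4% fell, against 40.6% and 40.3% of the genes without it. The element was in 0.70% of promoters of genes past 2-fold higher, against 1.03% of all. A match is a description of the letters and not a binding site.

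ERAD, which carries misfolded ER proteins to the cytosol for destruction, rose in most parts: 11 of 16 tested genes rose, 2 fell and 3 did not pass, with a median log2 change of 0.83 (total counts: 14 higher, 2 lower, median 1.58). DER1, a channel subunit of the Hrd1 ligase complex, had 181 and 194 CPM at 4 h, against 29.6 and 26.2 CPM at 0 h (2.75 ± 0.10), and its homologue DFM1 had 270.1 and 264 CPM at 4 h, against 56.8 and 58.9 CPM at 0 h (2.20 ± 0.08). The ligase HRD1 and its scaffold USA1 rose by 1.04 and 1.45, and the extraction ATPase CDC48 with its partners UFD1 and NPL4 by 0.82, 1.00 and 1.19. MNL1, the mannosidase that marks glycoproteins for ERAD, fell by 1.69 ± 0.17, with 10.7 and 8.58 CPM at 4 h, against 27.1 and 35.1 CPM at 0 h. SSM4, the ligase gene for the other ERAD branch, fell by 1.10 ± 0.09. Both were also lower under total counts.

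Most genes for making UDP-GlcNAc and for the first glycosylation steps rose. In the list of UDP-GlcNAc supply and first glycosylation steps 6 of 7 tested genes rose, 0 fell and 1 did not pass, with a median log2 change of 0.63 (total counts: 7 higher, 0 lower, median 1.38). GFA1, the rate-limiting enzyme of hexosamine synthesis, had 2251 and 2211 CPM at 4 h, against 577 and 567 CPM at 0 h (1.96 ± 0.09, edgeR adjusted p = 3.75e-10). ALG7 (YBR243C, chromosome II, 705447 to 706793), the enzyme that tunicamycin inhibits, had 120.3 and 88.8 CPM at 4 h, against 76.2 and 68.0 CPM at 0 h (0.54 ± 0.14, edgeR adjusted p = 0.00506). ALG13 and ALG14, which together add the next sugar, rose by 1.03 and 0.63. GNA1, an acetyltransferase of the same route, did not pass, at -0.35 ± 0.17, but was called lower without replicate 1 at 0 h (-0.55); under total counts it was 0.40.

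For assembly of the lipid-linked oligosaccharide, 6 of 15 tested genes rose, 7 fell and 2 did not pass, with a median log2 change of -0.11 (total counts: 9 higher, 1 lower, median 0.64), shares near the 41.0% higher and 39.4% lower of all genes. DPM1, which makes dolichol-phosphate-mannose, rose by 0.91, and the dolichol kinase SEC59 by 0.84, while the glucosyltransferase ALG5 fell by 1.47 ± 0.10. For the oligosaccharyltransferase that transfers the finished glycan, 2 of 9 tested genes rose, 7 fell and 0 did not pass, with a median log2 change of -0.54 (total counts: 4 higher, 2 lower, median 0.21). STT3, its catalytic subunit, had 198 and 137 CPM at 4 h, against 306 and 334 CPM at 0 h, a change of -0.94 ± 0.17 that no longer passed under total counts (-0.18). OST1 fell by 1.28 ± 0.08 and OST2 rose by 0.55. Among 7 protein O-mannosyltransferases, which add mannose in the ER, 2 rose and 3 fell (total counts: 5 higher, 1 lower), with a median of -0.16 (total counts 0.59). PMT3 had 183 and 166 CPM at 4 h, against 60.7 and 61.7 CPM at 0 h (1.51 ± 0.09) and PMT5 rose by 0.81. PMT4 had 124 and 106 CPM at 4 h, against 553 and 553 CPM at 0 h (-2.27 ± 0.09), lower under both scalings. PMT1 and PMT2 stood at -0.05 (not passed) and -0.26, and PMT6 and PMT7 at -0.61 and -0.16 (not passed); all 4 turned positive under total counts. The PMT2 call was lost without replicate 2 at 4 h (-0.13).

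In the translocation and signal peptidase list, 4 of 14 tested genes rose, 5 fell and 5 did not pass, with a median log2 change of -0.05 (total counts: 10 higher, 2 lower, median 0.70); both shares were below those of all genes, 41.0% higher and 39.4% lower. SSH1, the channel of a second translocon, fell by 2.23 ± 0.08, while the channel gene SEC61 did not pass (-0.16). SEC72 rose by 1.05. In vesicle traffic between ER and Golgi, 17 of 28 tested genes rose, 7 fell and 4 did not pass, with a median log2 change of 0.40 (total counts: 23 higher, 1 lower, median 1.15). The largest rises were in cargo receptors: EMP46 had 44.8 and 43.3 CPM at 4 h, against 6.36 and 6.60 CPM at 0 h (2.76 ± 0.14), and ERV29, which sorts soluble cargo, had 783 and 854 CPM at 4 h, against 206 and 208 CPM at 0 h (1.98 ± 0.09). SFB2, a paralog of the COPII coat subunit SEC24, rose by 1.38. ERV14, a cargo receptor for membrane proteins, fell by 1.30 ± 0.08 under TMM and was lower under total counts. EMP47, the paralog of EMP46, stood at -0.73 under TMM and 0.022 under total counts, where it did not pass.

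INO1 (YJL153C, chromosome X, 134332 to 135933), the inositol-3-phosphate synthase gene and a textbook UPR-linked target, had 1711 and 2191 CPM at 4 h, against 49.1 and 42.4 CPM at 0 h (5.41 ± 0.13, edgeR adjusted p = 1.07e-11). The rest of its list was mixed: for inositol and phospholipid synthesis 5 of 18 tested genes rose, 9 fell and 4 did not pass, with a median log2 change of -0.34 (total counts: 10 higher, 4 lower, median 0.41). The phosphatidylethanolamine methylation gene OPI3 rose by 0.68 and the INO1 activator gene INO4 by 0.71. PSD1, the mitochondrial phosphatidylserine decarboxylase, fell by 1.50 ± 0.09, and the choline phosphotransferase CPT1 by 1.00. For ergosterol synthesis 1 of 25 tested genes rose, 16 fell and 8 did not pass, with a median log2 change of -0.58 (total counts: 12 higher, 9 lower, median 0.17). HMG1, the rate-limiting reductase, fell by 1.75 ± 0.09, and NCP1 and ERG4 by 1.78 ± 0.13 and 1.75 ± 0.10, all also lower under total counts. ERG10, at the entry of the pathway, rose by 0.61.

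Cell wall genes moved in both directions, with shares close to those of all genes (41.0% higher, 39.4% lower). In the wall list 10 of 20 tested genes rose, 8 fell and 2 did not pass, with a median log2 change of 0.24 (total counts: 15 higher, 2 lower, median 0.99). GSC2 (YGR032W, chromosome VII, 548264 to 553951), the stress-induced glucan synthase, had 2999.6 and 2671 CPM at 4 h, against 53.0 and 57.0 CPM at 0 h (5.69 ± 0.10, edgeR adjusted p = 5.89e-13). SLT2, the MAP kinase of the wall integrity pathway, rose by 1.84 and the exchange factor ROM1 by 2.01. The cell wall mannoprotein CWP1 and the glucanosyltransferase GAS1 fell by 2.60 ± 0.15 and 2.48 ± 0.10. Of 6 yapsins, aspartyl proteases anchored at the cell surface, 4 rose and 2 fell (total counts: 5 higher, 1 lower), with a median of 2.70 (total counts 3.45). YPS1 had 455 and 396 CPM at 4 h, against 58.6 and 55.2 CPM at 0 h (2.90 ± 0.09), and YPS3 143 and 110.0 CPM at 4 h, against 11.2 and 9.69 CPM at 0 h (3.59 ± 0.17). YPS6 rose by 2.49. YPS5 had 49 reads over the 4 h libraries and 2 over those at 0 h, a ratio of 20.5-fold (95% counting interval 5.37 to 174). MKC7, a close relative of YPS1, had 32.5 and 24.2 CPM at 4 h, against 215 and 228 CPM at 0 h (-2.97 ± 0.12). YPS7 stood at -0.34 under TMM, a call lost without replicate 2 at 4 h (-0.14), and was called higher under total counts, at 0.41. The PIR wall proteins gave 2 higher, 2 lower and 1 not passed of 5, median 0.22 (total counts: 4 higher, 1 lower, median 0.96). PIR3 rose to 43.9 and 36.5 CPM at 4 h, against 2.70 and 1.28 CPM at 0 h (4.33 ± 0.30), CIS3 rose by 0.31, PIR1 fell by 1.61 ± 0.12, HSP150 stood at -0.35 (total counts 0.40) and PIR5 did not pass (0.22). The CIS3 call was lost without replicate 1 at 4 h (0.22) and that of HSP150 without replicate 2 at 4 h (-0.21).

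Genes of calcium signalling through calcineurin moved in both directions. In the list 6 of 13 tested genes rose, 5 fell and 2 did not pass, with a median log2 change of 0.19 (total counts: 11 higher, 0 lower, median 0.93), shares close to the 41.0% higher and 39.4% lower of all genes. CMK2, a calmodulin-dependent kinase, had 351 and 360.3 CPM at 4 h, against 38.1 and 33.8 CPM at 0 h (3.31 ± 0.09). RCN1, the calcineurin regulator and target, had 19.8 and 16.5 CPM at 4 h, against 3.56 and 4.79 CPM at 0 h (2.11 ± 0.21), and PMC1, the vacuolar calcium pump, 353 and 318 CPM at 4 h, against 90.3 and 98.2 CPM at 0 h (1.83 ± 0.09). The plasma membrane channel subunit MID1 fell by 0.97 ± 0.12 under TMM and the vacuolar calcium exchanger VCX1 by 0.61 ± 0.12, and neither passed under total counts. CRZ1, the transcription factor that calcineurin activates, did not pass (-0.09).

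**Figure D3:**
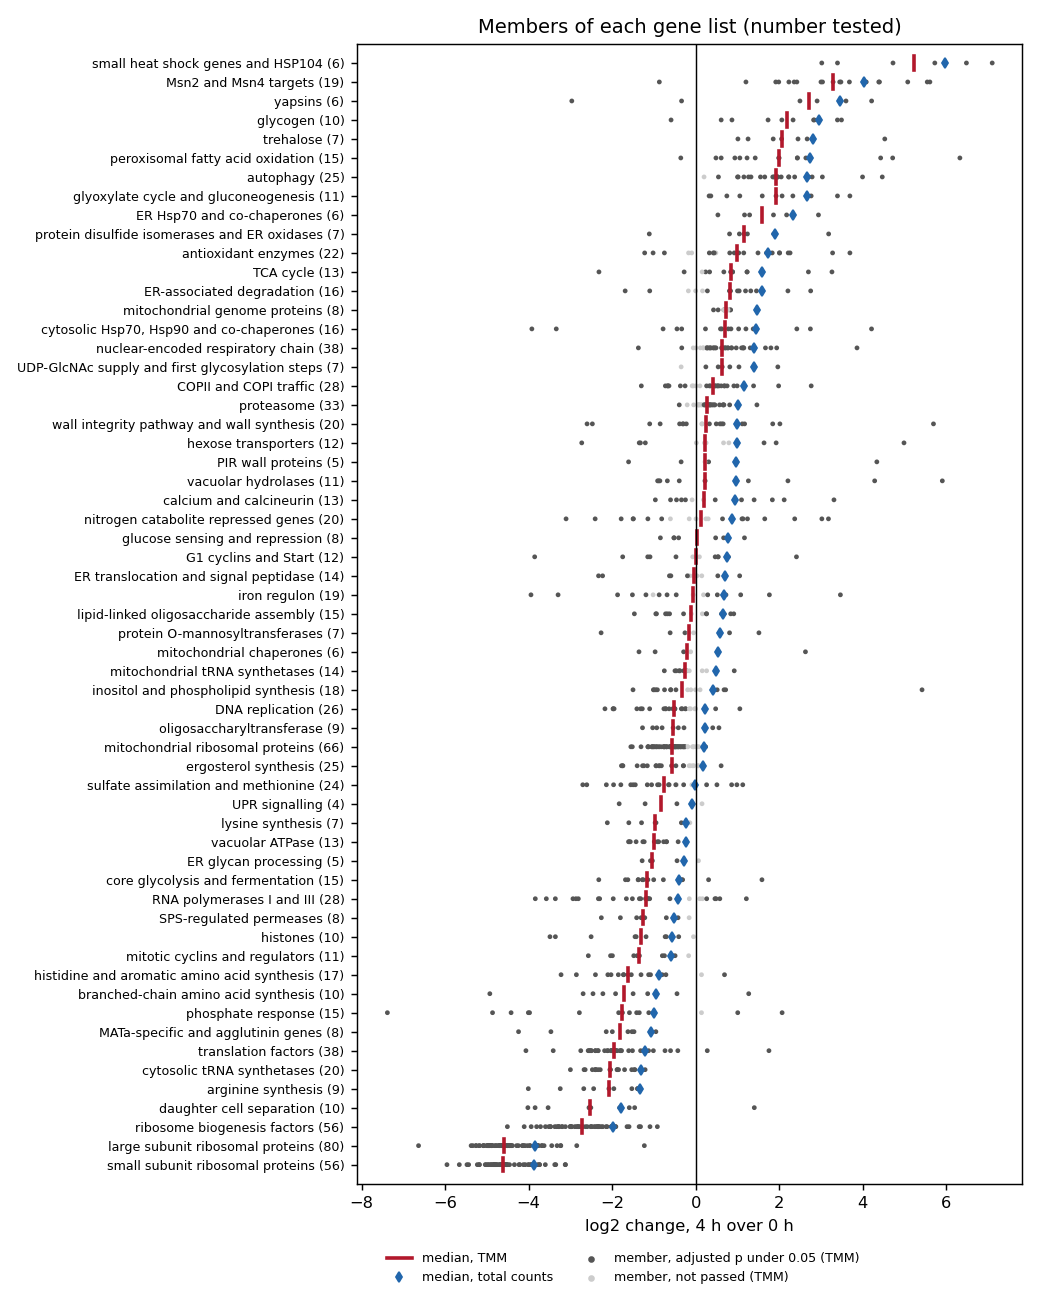
Log2 change, 4 h over 0 h (horizontal axis), of every tested member of the 59 gene lists, 1 list per row ordered by its TMM median, dark points past an adjusted p of 0.05 and pale points not; red bars mark TMM medians and blue diamonds total-count medians. Medians run from 5.22 for small heat shock genes to -4.62 for small-subunit ribosomal proteins, and the diamonds lie about 0.75 to the right of the bars.

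Every ribosomal protein gene tested fell. All 80 of the large subunit and all 56 of the small subunit fell under both scalings, with TMM medians of -4.59 and -4.62, and of -3.84 and -3.87 under total counts. Past 2-fold were 79 and 56 of them. RPL9A (YGL147C, chromosome VII, 227754 to 228329) fell most, with 29.0 and 27.5 CPM at 4 h, against 3031 and 2593 CPM at 0 h (-6.64 ± 0.11, edgeR adjusted p = 5.89e-13). RPS22A had 54.6 and 58.5 CPM at 4 h, against 3662 and 3359 CPM at 0 h and RPS9B 82.0 and 79.4 CPM at 4 h, against 4002 and 4167 CPM at 0 h. ASC1, the scaffold protein of the small subunit, had 126 and 120.5 CPM at 4 h, against 6088 and 4871 CPM at 0 h. RPL15B fell least of the large subunit, at -1.23, and RPS30A least of the small subunit, at -3.12. Many of these genes come as near-identical copies, and the treatment of reads that map to several places does not appear among the sources used here, so values within such a pair are uncertain.

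Genes that build ribosomes fell as a block, by less. All 56 ribosome biogenesis factors fell, with a median of -2.74 (total counts: 55 lower, median -1.99). NSR1, nucleolin, had 39.4 and 32.4 CPM at 4 h, against 855 and 780.4 CPM at 0 h (-4.51 ± 0.11). The helicase HAS1 had 17.6 and 18.0 CPM at 4 h, against 309 and 306 CPM at 0 h (-4.11 ± 0.09), and NOP1, fibrillarin, 31.0 and 26.2 CPM at 4 h, against 438 and 440.4 CPM at 0 h (-3.94 ± 0.10). SPB4 fell least, at -0.92, and did not pass under total counts. For RNA polymerases I and III 5 of 28 tested genes rose, 20 fell and 3 did not pass, with a median log2 change of -1.19 (total counts: 9 higher, 18 lower, median -0.44). The polymerase I subunits RPA43, RPA49 and RPA34 led, with changes of -3.84 ± 0.14, -3.58 ± 0.09 and -3.36 ± 0.10. The rises were among polymerase III initiation factors: BRF1 rose by 0.57, TFC6 by 1.21, TFC4 by 0.48, TFC3 by 0.46 and TFC8 by 0.26.

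Promoters of ribosome biogenesis genes often hold the PAC and RRPE elements. Searched as GATGAG and AAAATTT on both strands of the 250 bases before the start, the PAC core was in 53 of 56 and the RRPE core in 55 of 56 promoters of the list, against 17.1% and 22.3% of all promoters. Of these genes NSR1, NOP1 and GAR1, which changed by -4.51, -3.94 and -3.81, are shown with both elements in capitals; overlapping matches of 1 element on the 2 strands merge into a longer run of capitals.
NSR1, chrVII:807802-807871, minus strand: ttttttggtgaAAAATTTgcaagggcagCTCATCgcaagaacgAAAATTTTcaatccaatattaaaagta
NOP1, chrIV:427114-427183, plus strand: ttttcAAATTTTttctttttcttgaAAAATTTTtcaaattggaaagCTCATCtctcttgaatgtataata
GAR1, chrVIII:283393-283462, minus strand: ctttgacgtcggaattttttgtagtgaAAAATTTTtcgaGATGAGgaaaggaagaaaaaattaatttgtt
Among all 5611 promoters, 60.6% of the genes with an RRPE core fell, against 34.4% of those without it, and for the PAC core the shares were 56.3% and 37.0%.

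The rest of the cytosolic translation machinery fell too. Of 38 translation factors 36 fell and 2 rose, with a median of -1.97 (total counts: 33 lower, 3 higher, median -1.22). TEF4, a subunit of elongation factor 1B, had 85.9 and 68.3 CPM at 4 h, against 1305 and 1277 CPM at 0 h (-4.07 ± 0.11), and YEF3, elongation factor 3, 1245 and 1215 CPM at 4 h, against 13083 and 13125 CPM at 0 h (-3.41 ± 0.09). The rises were HEF3, the paralog of YEF3, with 19.3 and 20.7 CPM at 4 h, against 5.61 and 6.28 CPM at 0 h (1.75 ± 0.17), and the eIF4G gene TIF4632, at 0.27, a call lost without replicate 2 at 4 h (0.26) or at 0 h (0.18). All 20 cytosolic tRNA synthetases fell under both scalings, with a median of -2.05 (total counts -1.30). The prolyl-tRNA synthetase YHR020W led with 145 and 136 CPM at 4 h, against 1152 and 1103 CPM at 0 h (-3.00 ± 0.09), and the lysyl and asparaginyl enzymes KRS1 and DED81 fell by 2.68 ± 0.09 and 2.65 ± 0.09.

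Mitochondrial translation genes had medians nearer 0 than the cytosolic lists. In the mitochondrial ribosome list 1 of 66 tested genes rose, 55 fell and 10 did not pass, with a median log2 change of -0.56 (total counts: 30 higher, 11 lower, median 0.19), so its direction depended on the scaling. The subunit genes MRPL4, RSM26 and MRPL37 stood lowest, at -1.55, -1.52 and -1.31, and RSM19 was the 1 called higher, at 0.24, a call lost without replicate 1 or 2 at 4 h (0.26 and 0.22) or replicate 2 at 0 h (0.10). For mitochondrial tRNA synthetases 1 of 14 tested genes rose, 9 fell and 4 did not pass, with a median log2 change of -0.26 (total counts: 13 higher, 0 lower, median 0.49). SLM5, the asparaginyl enzyme, rose by 0.92. Messages of the mitochondrial genome rose in 6 of 8 protein genes (total counts: 7 higher), with a median of 0.71 (total counts 1.46). COX1, a cytochrome oxidase subunit, had 3396 and 3691 CPM at 4 h, against 1979 and 1997 CPM at 0 h (0.83 ± 0.09). The COX1 call was lost in a fit of all 8 libraries, and how rRNA was removed or mRNA selected is not stated in the sources used here.

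Most respiratory genes of the nucleus rose: 31 of 38 tested genes rose, 2 fell and 5 did not pass, with a median log2 change of 0.64 (total counts: 37 higher, 1 lower, median 1.39). The external NADH dehydrogenase NDE2 had 12.2 and 8.40 CPM at 4 h, against 0.971 and 0.426 CPM at 0 h (3.86 ± 0.50). Its 0 h values rest on 9 and 4 reads, so the size of its rise is uncertain. The succinate dehydrogenase subunits SDH4 and SDH2 rose by 1.94 ± 0.09 and 1.80 ± 0.09, calls lost in a fit of all 8 libraries. CYC1, the main cytochrome c, fell by 1.38 ± 0.09 and was lower under total counts, while its hypoxic isoform CYC7 rose by 1.14. NDE1 stood at -0.34 (total counts 0.42), a call lost without replicate 1 or 2 at 4 h (-0.35 and -0.31) or replicate 1 at 0 h (-0.12). For the TCA cycle 10 of 13 tested genes rose, 2 fell and 1 did not pass, with a median log2 change of 0.83 (total counts: 12 higher, 1 lower, median 1.58). CIT3, a citrate synthase, had 32.7 and 30.1 CPM at 4 h, against 3.24 and 3.30 CPM at 0 h (3.26 ± 0.19) and LSC2, a succinyl-CoA ligase subunit, 743 and 755 CPM at 4 h, against 115 and 116 CPM at 0 h (2.70 ± 0.08). ACO1, an aconitase, stood at -0.28 under TMM and 0.47 under total counts, its TMM call lost without replicate 1 or 2 at 4 h (-0.27 and -0.28). Mitochondrial chaperones split, with 2 higher, 3 lower and 1 not passed of 6, median -0.21 (total counts: 4 higher, 2 lower, median 0.54). HSP78 rose by 2.62 ± 0.09, MGE1 and SSC1 fell by 1.36 ± 0.09 and 0.97 ± 0.10, and HSP60 did not pass (-0.12), though it was called lower without replicate 2 at 0 h (-0.24).

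Most fermentation genes fell, while genes used for growth without glucose rose. In glycolysis and fermentation 2 of 15 tested genes rose, 13 fell and 0 did not pass, with a median log2 change of -1.16 (total counts: 4 higher, 10 lower, median -0.41). PDC1, pyruvate decarboxylase, had 1107 and 954 CPM at 4 h, against 4692 and 5612 CPM at 0 h (-2.32 ± 0.11), and ADH1, which makes ethanol, 2699 and 2810.3 CPM at 4 h, against 9670.4 and 8036 CPM at 0 h (-1.68 ± 0.10). ENO1, an enolase otherwise linked to growth on non-fermentable carbon, rose to 4946 and 5018 CPM at 4 h, against 1710.0 and 1616 CPM at 0 h (1.58 ± 0.09). HXK2 rose by 0.31, a call lost without replicate 1 or 2 at 4 h (0.33 and 0.29). All 11 genes of the glyoxylate cycle and gluconeogenesis rose under both scalings, with a median of 1.92 (total counts 2.67). IDP2, cytosolic isocitrate dehydrogenase, had 74.5 and 77.7 CPM at 4 h, against 4.85 and 6.92 CPM at 0 h (3.69 ± 0.16), SFC1, a succinate and fumarate carrier, 6.68 and 8.14 CPM at 4 h, against 0.863 and 0.532 CPM at 0 h and MLS1, malate synthase, 7.78 and 7.62 CPM at 4 h, against 1.40 and 0.852 CPM at 0 h. SFC1 and MLS1 had 13 reads or fewer in each 0 h library, and their calls were lost in a fit of all 8 libraries. The gluconeogenic enzymes FBP1 and PCK1 rose by 2.32 and 1.92.

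Genes of fatty acid oxidation in peroxisomes rose too: 14 of 15 tested genes rose, 1 fell and 0 did not pass, with a median log2 change of 1.98 (total counts: 15 higher, 0 lower, median 2.73). POT1, the thiolase, had 596 reads over the 4 h libraries and 6 over those at 0 h, a ratio of 83.0-fold (95% counting interval 37.9 to 227), and POX1, the acyl-CoA oxidase, had 263 reads over the 4 h libraries and 10 over those at 0 h, a ratio of 22.0-fold (95% counting interval 11.8 to 46.3). SPS19, a dienoyl-CoA reductase, had 38.7 and 40.5 CPM at 4 h, against 1.94 and 1.06 CPM at 0 h (4.71 ± 0.29). Of 12 hexose transporters that could be tested 3 rose and 4 fell (total counts: 8 higher, 4 lower), with a median of 0.23 (total counts 0.98). HXT5, a transporter of slow-growing cells, had 283 and 283 CPM at 4 h, against 8.95 and 8.94 CPM at 0 h (4.98 ± 0.12, edgeR adjusted p = 5.89e-13). HXT4 and HXT3 fell by 2.73 ± 0.25 and 1.21 ± 0.09, and HXT10 had 28 reads over the 4 h libraries and 6 over those at 0 h, a ratio of 3.90-fold (95% counting interval 1.58 to 11.5), its edgeR call lost without replicate 2 at 0 h (1.48). Glucose sensing and repression genes gave 4 higher, 4 lower and 0 not passed of 8, median 0.03 (total counts: 6 higher, 0 lower, median 0.78). The repressor MIG3 and the low-glucose sensor SNF3 rose by 1.16 and 0.75, and the high-glucose sensor RGT2 fell by 0.85 ± 0.12 under TMM and did not pass under total counts.

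The general stress programme held the highest median of the 59 lists. All 6 genes of the list of small heat shock genes and HSP104 rose under both scalings, with a median of 5.22 (total counts 5.97). HSP12 (YFL014W, chromosome VI, 107256 to 107585), a membrane-protecting protein, had 1693 and 2281 CPM at 4 h, against 16.4 and 12.7 CPM at 0 h (7.09 ± 0.17, edgeR adjusted p = 1.14e-10), and HSP26, a small chaperone, 457 and 539 CPM at 4 h, against 6.04 and 5.11 CPM at 0 h (6.48 ± 0.16). HSP42 had 579 and 540.0 CPM at 4 h, against 19.8 and 22.6 CPM at 0 h, TMA10 502 and 618 CPM at 4 h, against 12.0 and 9.26 CPM at 0 h and the disaggregase HSP104 2733 and 3061 CPM at 4 h, against 265 and 287 CPM at 0 h. Of 19 Msn2 and Msn4 targets 18 rose past 2-fold and 1 fell (total counts: 18 higher, 0 lower), with a median of 3.29 (total counts 4.03). DCS2 had 229 and 251 CPM at 4 h, against 4.75 and 5.11 CPM at 0 h (5.60 ± 0.15). XBP1, a repressor, had 23.9 and 20.2 CPM at 4 h, against 0.647 and 0.639 CPM at 0 h (5.07 ± 0.42). In those 0 h libraries 3 reads equal 0.324 and 0.320 CPM, so the size of the XBP1 rise is uncertain. DDR2 had 402 reads over the 4 h libraries and 7 over those at 0 h, a ratio of 48.0-fold (95% counting interval 23.1 to 120.1). YGP1 was the exception, at -0.87 under TMM, and did not pass under total counts (-0.12).

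The stress response element (STRE), the site of Msn2 and Msn4, was searched as AGGGG on both strands. It was in 13 of 19 promoters of that list (68.4%), against 19.0% of all promoters, 35.8% of genes past 2-fold higher and 12.1% of those past 2-fold lower. The list gathers known targets of these factors, so a high share in it follows from its choice. The stretches below hold 2 or 3 copies each, in capitals, before genes that stood among the highest rises; copies on the other strand read as the reverse complement.
HSP12, chrVI:107012-107081, plus strand: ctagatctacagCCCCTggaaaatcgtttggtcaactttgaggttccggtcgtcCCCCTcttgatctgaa
HSP42, chrIV:806390-806459, plus strand: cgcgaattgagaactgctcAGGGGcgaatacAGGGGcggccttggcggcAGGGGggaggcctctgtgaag
TSL1, chrXIII:70386-70455, plus strand: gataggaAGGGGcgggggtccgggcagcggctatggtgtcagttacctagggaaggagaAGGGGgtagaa
DDR2, chrXV:231908-231977, minus strand: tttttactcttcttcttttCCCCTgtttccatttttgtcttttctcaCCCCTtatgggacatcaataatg
Of the 1066 genes with an STRE, 56.7% rose and 27.8% fell, against 36.9% and 43.2% of genes without it, and the median log2 changes were 0.49 with it and -0.08 without it.

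Storage sugar genes rose. All 7 trehalose genes rose under both scalings, synthesis and breakdown alike, with a median of 2.05 (total counts 2.80). TSL1, a regulatory subunit of trehalose synthase, had 593 and 609.6 CPM at 4 h, against 20.6 and 31.6 CPM at 0 h (4.52 ± 0.16), the synthase TPS1 529.5 and 482 CPM at 4 h, against 75.8 and 83.6 CPM at 0 h (2.66 ± 0.09) and the neutral trehalase NTH1 589 and 591 CPM at 4 h, against 105 and 112 CPM at 0 h (2.45 ± 0.08). For glycogen, with a median of 2.19 (total counts 2.94), 9 of 10 genes rose and PIG1 fell under TMM (-0.59), turning to 0.16 under total counts, where it did not pass. GLC3, the branching enzyme, had 115 and 122 CPM at 4 h, against 11.1 and 10.0 CPM at 0 h (3.49 ± 0.12) and GPH1, the phosphorylase, 274 and 326 CPM at 4 h, against 30.5 and 26.7 CPM at 0 h (3.39 ± 0.11). Among antioxidant enzymes 16 of 22 tested genes rose, 3 fell and 3 did not pass, with a median log2 change of 0.97 (total counts: 19 higher, 2 lower, median 1.72). PRX1, the mitochondrial peroxiredoxin, had 476 and 526 CPM at 4 h, against 42.3 and 35.5 CPM at 0 h (3.69 ± 0.10), and CTT1, cytosolic catalase, 66.6 and 73.5 CPM at 4 h, against 6.04 and 8.41 CPM at 0 h (3.27 ± 0.16). SOD1 and TRR1 fell by 1.22 ± 0.11 and 1.02 ± 0.08.

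Cytosolic chaperones were divided. Of 16 Hsp70, Hsp90 and co-chaperone genes 11 rose and 5 fell (total counts: 13 higher, 2 lower), with a median of 0.70 (total counts 1.45). SSE2, an Hsp70 exchange factor, had 703 and 753 CPM at 4 h, against 38.7 and 40.1 CPM at 0 h (4.21 ± 0.09), the inducible Hsp70 SSA4 rose by 2.74 and the inducible Hsp90 HSP82 by 2.42. SSB1 and SSB2, the Hsp70s that sit on ribosomes, fell. SSB1 had 558 and 546 CPM at 4 h, against 8519 and 8249 CPM at 0 h (-3.92 ± 0.09) and SSB2 651 and 639 CPM at 4 h, against 6713 and 6348 CPM at 0 h (-3.34 ± 0.09); the pair is similar in sequence, so the split of reads between them is uncertain.

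Amino acid synthesis fell across pathways. All 9 arginine synthesis genes fell under both scalings, with a median of -2.08 (total counts -1.33). ARG3 had 14.8 and 13.6 CPM at 4 h, against 236 and 221 CPM at 0 h (-4.01 ± 0.11) and ARG1 146 and 142 CPM at 4 h, against 1359 and 1370.2 CPM at 0 h (-3.25 ± 0.09). For branched chains 1 of 10 tested genes rose, 9 fell and 0 did not pass, with a median log2 change of -1.71 (total counts: 2 higher, 8 lower, median -0.96). LEU9, an isopropylmalate synthase, had 15.5 and 11.8 CPM at 4 h, against 425 and 406 CPM at 0 h (-4.93 ± 0.12), and BAT2, the cytosolic transaminase, rose by 1.27. For lysine 0 of 7 tested genes rose, 6 fell and 1 did not pass, with a median log2 change of -0.97 (total counts: 2 higher, 5 lower, median -0.22), led by LYS4 (-2.12) and LYS2 (-1.60). For histidine and aromatic amino acids 1 of 17 tested genes rose, 15 fell and 1 did not pass, with a median log2 change of -1.62 (total counts: 2 higher, 13 lower, median -0.87). ARO4 had 121 and 124 CPM at 4 h, against 1174 and 1119 CPM at 0 h (-3.23 ± 0.09) and HIS1 136 and 134 CPM at 4 h, against 1026 and 929 CPM at 0 h (-2.86 ± 0.09), while TYR1 rose by 0.69.

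The Gcn4 response element (GCRE), searched as TGACTC on both strands, was in 24 of 43 promoters of the amino acid synthesis lists, against 6.42% of all promoters. The HIS1 promoter is shown as an example, with the element in capitals as its reverse complement.
HIS1, chrV:265931-266000, minus strand: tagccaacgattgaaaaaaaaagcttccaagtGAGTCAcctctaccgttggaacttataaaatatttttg
Over all 360 genes with the element 44.7% fell, against 40.0% of those without it.

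Sulfur and nitrogen genes were mixed. For sulfate assimilation and methionine 5 of 24 tested genes rose, 16 fell and 3 did not pass, with a median log2 change of -0.77 (total counts: 9 higher, 10 lower, median -0.02). SAM1, S-adenosylmethionine synthetase, fell by 2.61 ± 0.10 and MMP1, the S-methylmethionine permease, by 2.71 ± 0.14, while STR3 and MET28 rose by 1.12 and 0.98. Of 8 permease genes induced by external amino acids through the SPS sensor, 7 fell and 0 rose (total counts: 5 lower, 2 higher), with a median of -1.27 (total counts -0.51), PTR2 at -2.26 and TAT1 at -1.81. Genes under nitrogen catabolite repression gave 8 higher, 7 lower and 5 not passed of 20, median 0.12 (total counts: 12 higher, 6 lower, median 0.87), near the shares of all genes. The ammonium permease gene MEP2 had 68.6 and 58.7 CPM at 4 h, against 496 and 599 CPM at 0 h (-3.11 ± 0.11), and the general amino acid permease gene GAP1 264 and 257 CPM at 4 h, against 1236 and 1531 CPM at 0 h (-2.41 ± 0.11). GDH2, which releases ammonia from glutamate, had 560.5 and 574 CPM at 4 h, against 67.0 and 73.2 CPM at 0 h (3.02 ± 0.09), and DAL4, the allantoin permease, rose by 3.17 ± 0.22.

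Autophagy genes rose nearly throughout. Of 25 genes 24 rose, 20 of them past 2-fold, and ATG12 did not pass (0.20); under total counts all 25 were higher. ATG8 (YBL078C, chromosome II, 80378 to 80731), the ubiquitin-like protein that coats the growing membrane, had 181 and 184 CPM at 4 h, against 12.1 and 10.9 CPM at 0 h (3.99 ± 0.11, edgeR adjusted p = 1.08e-12). ATG39, the receptor for autophagy of the nuclear envelope and perinuclear ER, had 61.5 and 61.9 CPM at 4 h, against 3.13 and 2.45 CPM at 0 h (4.46 ± 0.20), and ATG40, the receptor for peripheral ER, rose by 1.94. The scaffold gene ATG17 rose by 3.03 ± 0.10, the kinase ATG1 by 2.37 and the mitophagy receptor ATG32 by 2.22. The median change of the list was 1.92, against 0.03 over all genes (total counts 2.67, against 0.78).

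Of 11 vacuolar hydrolases 5 rose and 5 fell, near the shares of all genes (total counts: 7 higher, 0 lower), with a median of 0.21 (total counts 0.96). AMS1, alpha-mannosidase, had 846 and 807 CPM at 4 h, against 12.4 and 15.2 CPM at 0 h (5.90 ± 0.12), and PRB1, proteinase B, 1262 and 1103 CPM at 4 h, against 57.7 and 63.9 CPM at 0 h (4.28 ± 0.11). APE1, a cargo of the same delivery route as AMS1, rose by 2.20 ± 0.08. DAP2 and APE3 stood at -0.91 and -0.89 and did not pass under total counts. All 13 subunits of the vacuolar ATPase, the proton pump, fell under TMM, with a median of -0.99 (total counts: 7 lower, 1 higher, median -0.24). VMA3 had 465 and 512 CPM at 4 h, against 1556 and 1426 CPM at 0 h (-1.61 ± 0.10).

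Most proteasome genes rose by a small amount. For the proteasome 22 of 33 tested genes rose, 1 fell and 10 did not pass, with a median log2 change of 0.27 (total counts: 33 higher, 0 lower, median 1.02). RPN4, the transcription factor of proteasome genes, had 210.4 and 226 CPM at 4 h, against 78.9 and 79.7 CPM at 0 h (1.46 ± 0.08), and the base ATPase RPT3 347 and 372 CPM at 4 h, against 204 and 206 CPM at 0 h (0.81 ± 0.08). RPN8 was the exception, at -0.40 under TMM and 0.35 under total counts. The core of the Rpn4 element (PACE), searched as GGTGGC on both strands, was in 29 of 33 of these promoters, against 5.56% of all. The promoters of RPT3 and RPN11, which rose by 0.81 and 0.65, are shown with it in capitals.
RPT3, chrIV:1261473-1261542, plus strand: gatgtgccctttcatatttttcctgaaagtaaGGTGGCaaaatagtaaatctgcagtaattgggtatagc
RPN11, chrVI:153237-153306, plus strand: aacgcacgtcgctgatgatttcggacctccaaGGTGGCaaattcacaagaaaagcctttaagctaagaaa
Over all 312 genes with this core 48.4% rose, against 40.2% of genes without it.

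The list of phosphate genes included PHO3, the gene with the steepest fall of all genes tested, whose response to phosphate itself was not examined. PHO3 (YBR092C, chromosome II, 427698 to 429101), an acid phosphatase, had 3.39 and 1.93 CPM at 4 h, against 442 and 444 CPM at 0 h (-7.38 ± 0.20, edgeR adjusted p = 5.89e-13). For the phosphate response 2 of 15 tested genes rose, 12 fell and 1 did not pass, with a median log2 change of -1.76 (total counts: 3 higher, 12 lower, median -1.01). PHO5, the repressible acid phosphatase, had 14.1 and 11.3 CPM at 4 h, against 335 and 405 CPM at 0 h (-4.87 ± 0.14), and PHO84, the high-affinity transporter, 61.4 and 47.9 CPM at 4 h, against 1185 and 1157 CPM at 0 h (-4.42 ± 0.12). The phosphatase PHM8 and GIT1, a permease for glycerophosphoinositol, rose by 2.07 and 1.00. In the iron regulon 8 of 19 tested genes rose, 8 fell and 3 did not pass, with a median log2 change of -0.06 (total counts: 11 higher, 4 lower, median 0.69), again near the shares of all genes. FET3, the ferroxidase of high-affinity uptake, had 57.9 and 50.1 CPM at 4 h, against 845 and 818 CPM at 0 h (-3.95 ± 0.10), and the reductase FRE4 fell by 3.30 ± 0.18. TIS11, which degrades mRNAs of iron-using proteins, had 138 and 129 CPM at 4 h, against 13.8 and 10.4 CPM at 0 h (3.46 ± 0.13).

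Under TMM cell cycle genes fell at several stages, though for the DNA replication list the direction of the median depended on the scaling. For DNA replication 2 of 26 tested genes rose, 20 fell and 4 did not pass, with a median log2 change of -0.53 (total counts: 10 higher, 8 lower, median 0.22). MCM7 and MCM3, of the replicative helicase, fell by 2.17 ± 0.10 and 1.98 ± 0.09, and RNR1, ribonucleotide reductase, by 1.98 ± 0.08, while its damage-induced paralog RNR3 rose by 1.05. Histones gave 0 higher, 9 lower and 1 not passed of 10, median -1.31 (total counts: 2 higher, 6 lower, median -0.56); HTB2 had 17.9 and 19.5 CPM at 4 h, against 202 and 219 CPM at 0 h (-3.49 ± 0.10). Mitotic genes gave 0 higher, 10 lower and 1 not passed of 11, median -1.35 (total counts: 1 higher, 6 lower, median -0.60); CLB2, the main mitotic cyclin, had 44.0 and 40.6 CPM at 4 h, against 177 and 171 CPM at 0 h (-2.04 ± 0.09). Start genes gave 5 higher, 5 lower and 2 not passed of 12, median 0.01 (total counts: 8 higher, 3 lower, median 0.76), near the shares of all genes; PCL1 rose to 177 and 185 CPM at 4 h, against 35.4 and 32.8 CPM at 0 h (2.41 ± 0.09), while FAR1, an inhibitor of the G1 kinase, and CLN3, the upstream G1 cyclin, fell by 3.86 ± 0.11 and 1.75 ± 0.23. In daughter cell separation, with a median of -2.53 (total counts -1.78), 9 of 10 genes fell under both scalings, with EGT2 at -4.02 and DSE2 at -3.85, and the chitin synthase CHS1 rose by 1.40. All 8 MATa-specific and agglutinin genes fell under TMM (total counts: 6 lower, 0 higher), with a median of -1.81 (total counts -1.07). STE2 had 47.7 and 47.0 CPM at 4 h, against 521 and 527 CPM at 0 h (-3.47 ± 0.08).

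Ratios between paralogs or isozymes within a library need no scaling. The pairs were chosen with earlier results of these data known, so their counts are a description. Of 60 pairs matched, 58 had at least 10 reads in every library, and in 54 the ratios of the 2 times did not overlap, a share close to the 89.9% of all genes whose levels did not overlap. The ratio moved by more than 1 on the log2 scale in 43 pairs, up in 31 and down in 12. The median size of the change was 2.29, against a median SD between replicates of 0.0855 at 4 h and 0.100 at 0 h. In 25 pairs the members were called in opposite directions (20 under total counts). Of all genes 41.0% rose and 39.4% fell, and the quartiles of the log2 change were -0.75 and 0.78. Opposite calls and shifts past 1 would thus be frequent between unrelated genes too, and no comparison with such pairs was made.

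In glucan synthesis, the log2 ratio of GSC2 to FKS1 was 0.82 and 0.76 at 4 h, against -5.74 and -5.77 at 0 h. GSC2 thus passed FKS1, the synthase of growing cells, in reads. HXT5 over HXT3 was -0.49 and -0.45 at 4 h, against -6.72 and -6.60 at 0 h. Among glyceraldehyde-3-phosphate dehydrogenases, TDH1 over TDH2 was -0.04 and 0.29 at 4 h, against -5.22 and -5.31 at 0 h, so that TDH1 reached about as many reads as TDH2. The elongation factor 3 pair HEF3 over YEF3 was -6.01 and -5.87 at 4 h, against -11.19 and -11.03 at 0 h, with HEF3 still the minor gene. IDP2 over IDP1 was -2.44 and -2.40 at 4 h, against -7.76 and -7.24 at 0 h, and GPP2 over GPP1, the glycerol phosphatases, -0.49 and -0.43 at 4 h, against -5.10 and -4.68 at 0 h. The aldehyde dehydrogenases ALD4 over ALD6 gave -1.41 and -1.30 at 4 h, against -5.29 and -5.63 at 0 h, and the pyruvate kinases PYK2 over CDC19 -5.19 and -4.93 at 4 h, against -8.82 and -8.94 at 0 h. In the other direction MKC7 over YPS1 was -3.81 and -4.03 at 4 h, against 1.87 and 2.05 at 0 h, which reversed the order of the yapsin pair. RPL9A over RPL9B was -1.73 and -1.85 at 4 h, against 1.63 and 1.60 at 0 h, both genes falling. No such shift was seen for MDH2 over MDH1, at -1.99 and -2.19 at 4 h, against -2.06 and -1.79 at 0 h, nor for ADH2 over ADH1, at -2.82 and -2.84 at 4 h, against -2.89 and -2.50 at 0 h, whose libraries overlapped between the times. TDH, ADH and RPL9 copies are similar in sequence, so their ratios are uncertain.

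**Figure D4:**
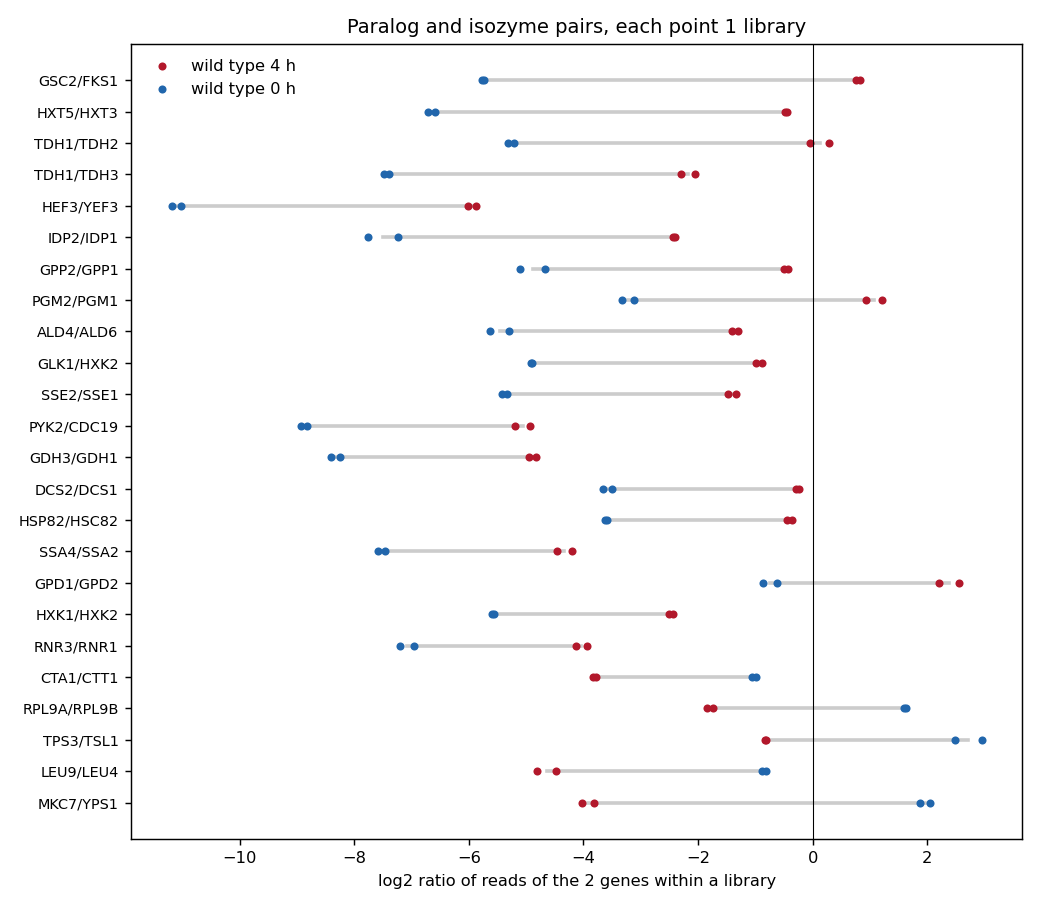
Log2 ratio of reads of the 2 genes of a pair (horizontal axis) in each library, for the 24 pairs with the largest change, red for 4 h and blue for 0 h, with a grey line joining the means. The replicates of a time nearly coincide, and GSC2/FKS1 lies at 0.82 and 0.76 at 4 h, against -5.74 and -5.77 at 0 h.

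Beyond the lists, the largest rise among genes with at least 10 reads in every library was ULI1 (YFR026C, chromosome VI, 205748 to 206257), a gene named for its induction in the UPR, with 633 and 630.4 CPM at 4 h, against 1.19 and 2.88 CPM at 0 h (8.27 ± 0.27, edgeR adjusted p = 2.48e-12). RTA1, linked to resistance to 7-aminocholesterol, had 134 and 137 CPM at 4 h, against 2.05 and 1.17 CPM at 0 h (6.39 ± 0.26), and the short gene CPP3 90.0 and 91.6 CPM at 4 h, against 1.19 and 1.17 CPM at 0 h (6.25 ± 0.27). ARO10, a decarboxylase that turns aromatic amino acids toward alcohols, had 209.6 and 235 CPM at 4 h, against 3.78 and 2.77 CPM at 0 h (6.08 ± 0.20). YDL114W (chromosome IV, 255604 to 256530), which has no other name in the files, was the only gene with 3 reads or fewer over both 0 h libraries and at least 100 in each 4 h library. It had 180 and 205 reads at 4 h, against 2 and 1 reads at 0 h, a ratio of 107-fold (95% counting interval 36.4 to 522). No gene met the reverse condition.

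Across the 10 motifs searched, the shares of genes that rose or fell differed most between promoters with and without the motif for the STRE, toward rises, and for the PAC and RRPE cores, toward falls. The heat shock element, searched as GAANNTTC, was in 6 of 16 promoters of the cytosolic chaperone list, against 10.1% of all, and 35.1% of genes with it rose, against 41.2% without it. The MCB (ACGCGT) was in 13 of 26 promoters of the replication list, against 2.92% of all. The E-box CACGTG was in 7 of 24 of the sulfur list, against 2.78%. A core of the Rap1 site, ACCCNNACA, was in 12 of 136 of the ribosomal protein promoters, against 2.44%. Some motifs were also frequent in lists other than these. The heat shock element was in 28 of 136 ribosomal protein promoters, and the MCB in 3 of 13 promoters of the ER folding lists. Promoters hold several motifs at once, PAC and RRPE in particular, so these shares are not independent, and none of them was tested. Where a list gathers genes known to be controlled through a motif, a high share of that motif in it is a description only.

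**Figure D5:**
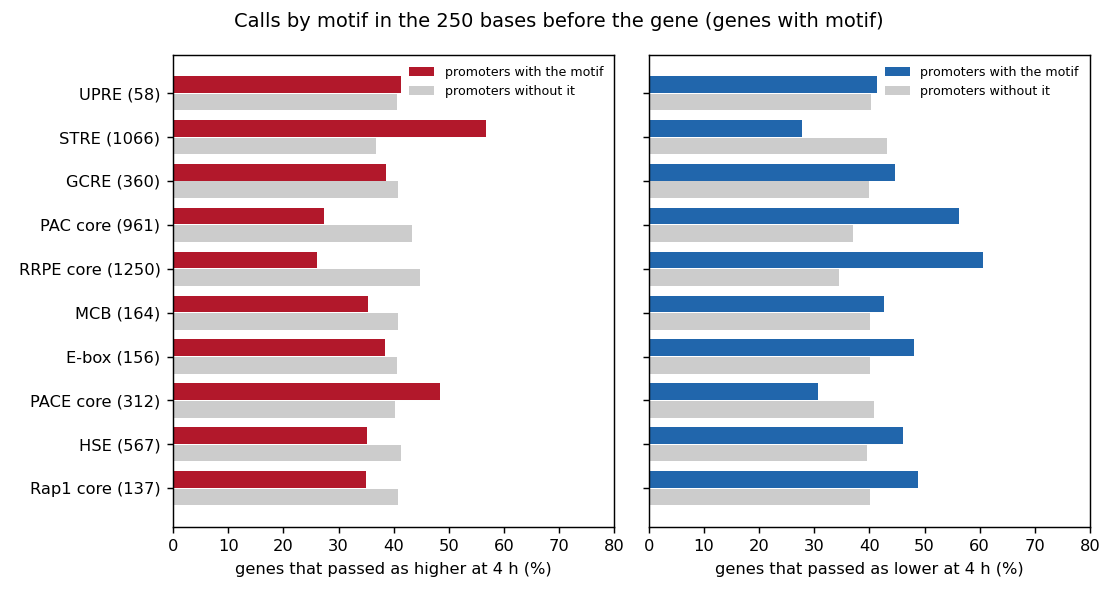
Share of genes (%, horizontal axes) that rose (left) or fell (right) under TMM, for genes with each motif in the 250 bases before the start (coloured) and without it (grey); the number of genes with the motif is in parentheses. Genes with an STRE rose in 56.7% of cases, against 36.9% without it, and genes with an RRPE core fell in 60.6%, against 34.4% without it.

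The authors' deposited table of the same comparison gives log2 fold changes for 5734 genes, of which 5683 were also tested here, and 5661 of these had the same sign. At an adjusted p under 0.05 a positive change is given for 2089 genes in the authors' deposited table, and a negative one for 2151. Of the genes called in the authors' deposited table, 4236 were called here in the same direction and 0 in the opposite one. For KAR2 the authors' deposited table gives 2.16.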

How the data were processed

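Gene-level read counts of 4 wild-type RNA-seq libraries were analysed. Whole-number read counts per gene region were made by the authors with plastid's counting program from reads of 25 to 100 nt at an offset of 25 nt, per the file headers. RPKM values, computed by the authors' program and deposited beside the counts, were used only to rank genes. The authors' deposited table gives log2 fold changes and p-values for this comparison. Tools listed in the submitters' processing notes are STAR 2.7.3a, Bowtie2 2.3.5, cutadapt 2.6 and DESeq2, with R64 as the build. Strand and multi-mapping settings are not given in the sources used here.

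Of 6696 regions, 105 had a countable length of 0. Exon reads were fitted with edgeR 4.0.16 in R 4.3.3 (limma 3.58.1) by the quasi-likelihood test with robust estimation, TMM scaling and filterByExpr, which left 5795 genes, with Benjamini-Hochberg adjustment over all of them at 0.05. Changes past 2-fold used glmTreat at a log2 change of 1. Low-count ratios carry a 95% interval that covers counting error only. Alternatives were total counts, RLE size factors, no low-count filter, DESeq2 1.42.0, coding reads, all 8 libraries, a replicate block and leaving out each library. The scripts were tested on simulated data.

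The members, gene lists, pairs and motifs were chosen with earlier results of these data known. The 59 lists named 1073 genes, of which 1065 were found. Named genes, 283 in all, were 7 of the pathway under study, the 8 largest movers each way with at least 10 reads in every library, up to 3 most changed members and 2 exceptions per list, all members of lists of up to 7 genes, the 6 most abundant per time, genes with 3 reads or fewer at 1 time and at least 100 per library at the other, and the 10 pairs of largest opposite shift. Some of these genes are counted in their lists only and are not reported by name here. Others in the text were named after their values were seen. Gene names, positions and promoters (250 bases before the gene start) came from RefSeq, build R64. The 4 grr1-deficient libraries entered only the alternative with all 8 libraries.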

Additional observations from a re-analysis of the deposited data

How the results depend on the processing

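The counts of higher and lower genes, and of those past 2-fold higher and lower, were 2374, 2285, 899 and 989 as reported. Total counts moved them to 3880, 1166, 2051 and 553. DESeq2 gave 2098, 2181, 654 and 837, RLE size factors 2333, 2338, 881 and 1012, and the fit of all 8 libraries 1905, 1936, 728 and 868. Coding reads gave 2291, 2289, 878 and 997, and no filter 2392, 2309, 893 and 997. Leaving out 1 library gave 2183 to 2328, 2139 to 2339, 827 to 860 and 924 to 1025.

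The submitters' comparison lists the 4 h and 0 h libraries by matching replicate number, but a shared culture is not stated in the sources used here. The deviations of replicate 1 from its group mean correlated at -0.0408 between the times over 5795 genes. With 2 libraries per time this value cannot decide whether the libraries were paired. With the replicate block the counts were 2379, 2297, 900 and 997, and no named gene changed its call.

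Of the 283 named genes 24 turned positive under total counts, by the construction of that scaling. Their log2 changes there were 0.47 for ACO1, 0.39 for ANT1, 0.022 for EMP47, 0.40 for GNA1, 0.46 for HSP10, 0.40 for HSP150, 0.63 for HSP60, 0.30 for IRE1, 0.41 for LYS1, 0.61 for LYS9, 0.23 for MIG2, 0.30 for MNS1, 0.25 for MSY1, 0.42 for NDE1, 0.41 for PGK1, 0.16 for PIG1, 0.70 for PMT1, 0.49 for PMT2, 0.14 for PMT6, 0.59 for PMT7, 0.35 for RPN8, 0.56 for UBP3, 0.15 for VCX1 and 0.41 for YPS7. A further 11 were no longer called and 3 became called. No named gene reversed under any other alternative; 5 lost their call with DESeq2 and 29 with all 8 libraries. Leaving out 1 library cost between 2 and 11 calls, and the causes were not tested. Depth limits genes near 3 reads, and 2 libraries per time limit every p-value.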

Other observations

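A group of vitamin genes was described after its values were seen, so it carries no test. Of 20 thiamine and vitamin B6 genes 17 had a positive log2 change and 13 exceeded 2-fold, with a median of 1.72 (2.47 under total counts). Over all genes tested the median was 0.03 (0.78 under total counts) and the upper quartile under TMM 0.78. Exceeding 2-fold here and in the next paragraph refers to the estimate alone, without a test. THI5 and THI12, near-identical genes for the thiamine precursor, had 143 and 136 CPM at 4 h, against 1.51 and 2.13 CPM at 0 h for THI5 and 191 and 182 CPM at 4 h, against 2.70 and 2.77 CPM at 0 h for THI12; the copies are so alike that the split of reads between them is uncertain. THI11 and THI13, at 3.84 and 4.59, are counted as separate members, and whether they share reads with THI5 and THI12 was not examined. THI4, for the thiazole part of the vitamin, had 32.2 and 30.3 CPM at 4 h, against 3.13 and 1.81 CPM at 0 h, and the B6 genes SNZ2 and SNZ3 changed by 2.88 and 2.74. The transporter gene THI7 and the pyrophosphokinase gene THI80 stood at -0.57 and -1.28. In aromatic amino acid breakdown, chosen the same way, 3 of 5 genes exceeded 2-fold, with a median of 1.07 (1.82 under total counts): ARO10 changed by 6.08 and the transaminase ARO9 by 2.70, while the other transaminase, ARO8, stood at -1.96.

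Of 6 genes of the opposite mating type, chosen after their values were seen, 3 had enough reads to be fitted. Of these, 2 exceeded 2-fold (3 under total counts). Over all genes tested the median was 0.03 (0.78 under total counts) and the upper quartile under TMM 0.78. Under total counts 2051 of 5795 genes passed the 2-fold test as higher. The 8 MATa-specific and agglutinin genes fell under TMM, and 6 were lower under total counts. The alpha-cell receptor gene STE3 had 251 and 257 reads at 4 h, against 29 and 33 at 0 h, and the silent-locus gene HMLALPHA2 had 749 and 654 reads at 4 h, against 248 and 252 at 0 h; its sequence is partly shared with other mating-type loci, so its source is uncertain. SAG1, for the alpha agglutinin, had 97 and 80 reads at 4 h, against 61 and 62 at 0 h, a log2 change of 0.27. MF(ALPHA)1 had 6 and 2 reads at 4 h, against 6 and 3 at 0 h, too few to be fitted. Of 326 tested genes within 30 kb of a chromosome end, 53.4% were called higher and 25.8% lower, against 41.0% and 39.4% of all genes, with a median log2 change of 0.51 (1.26 under total counts), against 0.03 (0.78) over all genes. They made up 11.0% of the genes past 2-fold higher and 3.78% of those past 2-fold lower, against 5.81% of all genes with a position. No cause was tested for any of these patterns.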
